A study of Mus musculus with 3 samples.

Results

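Foxp3+ cells are described here among sorted CD4+ T cells of spleen and kidney in a mouse model of lupus. They were chosen by their measured counts: a cell was taken as Foxp3+ when it held at least 1 UMI (unique molecular identifier, 1 captured transcript molecule) of Foxp3. It also had to hold none of the CD8 genes Cd8a and Cd8b1 and none of Il1r2, Slc7a10, Ecel1 and Thsd7a, which were used to set apart another group of cells. This rule took 653 cells, 102 from kidney and 551 from spleen, out of 13337 cells that passed quality filters and 30891 deposited barcode entries. Foxp3-zero cells, the 10854 cells that met the same conditions on the 6 other genes but held no Foxp3 UMI, are the comparison group. Foxp3 and the 6 other genes chose the cells, so their levels are given as a description and were not tested.

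Foxp3 is the X-linked transcription factor that specifies regulatory T cells, CD4+ T cells that restrain other immune cells. These cells depend on interleukin 2 made by others, which they bind through the high-affinity receptor chain Il2ra, and they act through inhibitory receptors such as Ctla4 and through cytokines. Loss of Foxp3 causes fatal autoimmunity in mice, and regulatory T cells that settle in tissues take on a programme of their own that includes Areg and Ccr8.

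The mice were of the MRL/lpr strain, in which a Fas mutation lets T cells accumulate and nephritis develops. All carried a loxP-flanked Ezh2 gene (Ezh2 fl/fl), the catalytic subunit of Polycomb repressive complex 2 (PRC2), which methylates histone H3. WT mice carried no Cre, KO mice (iCD4-Cre Ezh2 fl/fl) carried a Cre recombinase fused to an oestrogen receptor under the Cd4 promoter, and both received tamoxifen by gavage at 300 mg/kg, on 3 days a week in alternate weeks, from 10 or 14 weeks to 24 weeks of age. The Cd4 promoter is active in regulatory T cells as in other CD4+ T cells. Spleens were mashed and kidneys were digested with enzymes under heating, so organ and preparation cannot be told apart. Which mouse started treatment at which age is not given in the labels used here. Cells of each mouse and organ bore 1 antibody tag. The day marked as first in the tag labels gave both organs of 2 KO mice (KO1, KO2) and 3 WT mice (WT1, WT2, WT3). Each mouse is 1 replicate. The blocks of cells from the second day share 981 to 2399 barcodes with one another, across both organs' matrices, and were assigned to no mouse.

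Foxp3 counts were low in single cells, as is usual for a transcription factor: 269 of the 653 Foxp3+ cells held exactly 1 Foxp3 UMI, 158 held 2 and 226 held at least 3, with 15 as the highest count. The cells just outside the rule held 0. Of 1219 passing cells with a Foxp3 UMI, 73 were left out for a CD8 transcript and 525 for a UMI of the other 4 genes, mainly Il1r2 (437 cells). Median depth per mouse and organ lay between 2746 and 6004 UMIs in Foxp3+ cells and between 3109.5 and 3656 UMIs in Foxp3-zero cells, and 5 Foxp3+ cells held over 15000 UMIs. No barcode was shared between the blocks of the first day.

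The cells of mouse WT2 stood apart. Its 11 Foxp3+ cells held no UMI of the regulatory T cell markers Ikzf2, Il2ra, Itgae, Sdc4 and Swap70, and each but 1 held a single Foxp3 UMI. They were rich in cytotoxic transcripts instead, with Ccl5 at 31811 CPM (the gene's UMIs scaled to a fixed total of UMIs of the summed cells) and Gzmk at 1416 CPM in the spleen, close to the 29003 and 1133 CPM of the same mouse's Foxp3-zero cells. The label regulatory T cell therefore does not hold for WT2. Gene tests used sums of at least 10 cells, which left WT2 out (except where sums of 5 cells are named) and kept KO1, KO2, WT1 and WT3 in the spleen and KO1 and WT1 in the kidney.

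Foxp3+ cells made up 8.46% of passing spleen cells in KO1 (112 cells), 13.4% in KO2 (212 cells), 7.42% in WT1 (177 cells), 0.651% in WT2 (6 cells) and 2.05% in WT3 (44 cells). In the kidney they made up 3.35% in KO1 (24 cells), 3.20% in KO2 (7 cells), 3.50% in WT1 (57 cells), 0.341% in WT2 (5 cells) and 0.950% in WT3 (9 cells). The share was lower in the kidney than in the spleen of all 5 mice, at 2.27% ± 1.50 against 6.40% ± 5.16 (SD, n = 5), a mean difference of -4.13 percentage points (exact two-sided paired permutation test, p = 0.0625, the smallest that 5 mice allow).

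**Figure D1:**
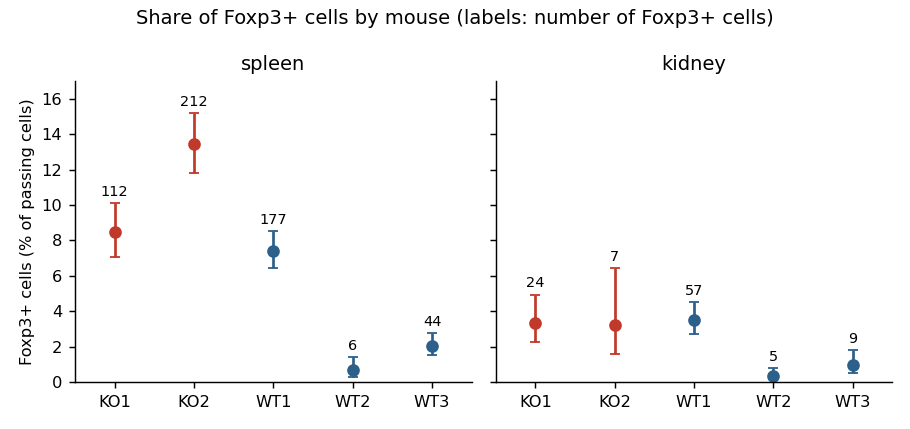
Share of Foxp3+ cells among passing cells (vertical axis, percent) in each mouse, spleen on the left and kidney on the right; red points are KO mice, blue points WT mice, bars are 95% Wilson intervals for counting error, and the labels give the number of Foxp3+ cells. Kidney shares lie between 0.341% and 3.50%, and in the spleen both KO mice lie above the 3 WT mice, of which WT1 is closest at 7.42%.

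In the spleen the share was 10.9% ± 3.5 in the KO mice (SD, n = 2) and 3.37% ± 3.57 in the WT mice (n = 3). The groups did not overlap, but the exact two-sided permutation test gave p = 0.2, where 0.1 is the smallest that 2 against 3 mice allow. The ranges overlapped once cells needed 2 Foxp3 UMIs (difference of 4.25 percentage points, exact permutation p = 0.3), because WT1 then lay above KO1. In the kidney the share was 3.27% ± 0.11 in KO (n = 2) and 1.60% ± 1.68 in WT (n = 3), with overlapping groups (exact permutation p = 0.4). When every passing cell with a Foxp3 UMI was counted, an alternative chosen after seeing the data, the spleen groups overlapped and the kidney groups did not (differences of 10.3 and 5.01 points).

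Part of these shares lies at the level seen in cells with CD8 or cytotoxic transcripts, taken as a rough background. Among kidney cells with both Cd8a and Cd8b1, 9.45% (12 of 127 cells, median 6146 UMIs) held a Foxp3 UMI, against 3.58% of all kidney cells (median 3395 UMIs), and after each cell was thinned to 2000 UMIs the shares were 2.74% and 2.14%. After thinning, the kidney shares of Foxp3+ cells, from 0.183% in WT2 to 2.42% in KO1, lay below that of these CD8 cells, which rests on 12 cells. In kidney cells with a Gzmb and a Havcr2 UMI the thinned share was 2.35%, below that of KO1. The kidney shares are therefore not read as shares of regulatory T cells, although markers were higher in the kidney Foxp3+ cells of KO1 and WT1, as given below. In the spleen 2.63% of such CD8 cells (2 of 76, median 4412 UMIs) held a Foxp3 UMI against 12.5% of all cells (median 3396 UMIs), and 0.596% against 9.74% after thinning. After thinning, the spleen shares of Foxp3+ cells in KO1 (6.44%), KO2 (10.2%), WT1 (6.07%) and WT3 (1.66%) stood above that background, which rests on 2 cells, and that of WT2 (0.331%) did not. Other spleen sets gave higher thinned shares: 3.26% in cells with a Gzmb and a Havcr2 UMI and 8.56% with a Cd8a or Cd8b1 UMI. WT3 lay below both, and KO1 and WT1 lay below the second. All these sets count every cell with a Foxp3 UMI, without the rule's other conditions. None of them was shown to be free of regulatory T cells, so a share below theirs need not be background.

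The 5 defining markers that the rule did not use separated Foxp3+ from Foxp3-zero cells in each of the 4 spleens tested. They were chosen with earlier results of these data known, so this is no independent check of the label. Ikzf2 (Helios, a transcription factor of regulatory T cells; 1:69531207-69687351 in GRCm38.p6, as are all positions here) stood at 799.9 CPM in KO1, 967 in KO2, 1062 in WT1 and 698 in WT3. Its Foxp3-zero levels were 87.5 and 154 CPM (KO) and 142 and 47.9 CPM (WT). The groups did not overlap, with a log2 difference of 2.96 ± 0.19 (SE) and an adjusted p of 1.49e-05. All adjusted p-values for genes are from edgeR's quasi-likelihood test with the mouse as a block where both classes or organs came from the same mice, Benjamini-Hochberg adjusted over all genes tested, and a gene is said to be higher or lower only where it is under 0.05.

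Il2ra (2:11642792-11693194) stood at 222 CPM in KO1, 128 in KO2, 253 in WT1 and 233 in WT3, against 4.60 to 24.9 CPM in Foxp3-zero cells, a log2 difference of 3.53 ± 0.34 (adjusted p = 2.20e-04). Itgae (CD103, the integrin chain that binds E-cadherin on epithelium; 11:73090505-73147449) stood at 229 CPM in KO1, 258 in KO2, 388 in WT1 and 119 in WT3, against 5.14 to 16.6 CPM, a log2 difference of 4.51 ± 0.24 (adjusted p = 3.84e-06). Sdc4 (syndecan-4, a heparan sulphate proteoglycan; 2:164424247-164443188) was at 74.8 CPM in KO1, 132 in KO2, 65.8 in WT1 and 85.2 in WT3, against 0.676 to 11.4 CPM, a difference of 3.98 ± 0.37 (adjusted p = 2.02e-04). No Foxp3+ sum of these mice fell within the range of the Foxp3-zero sums for any of these genes. Swap70, a signalling protein first described in B cells, was at 81.9 CPM in KO1, 124 in KO2, 96.5 in WT1 and 73.8 in WT3 against 6.08 to 19.9 CPM, a difference of 2.96 ± 0.25 (adjusted p = 1.37e-04).

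The same 5 markers were higher in the kidney Foxp3+ cells of KO1 and WT1. This test rests on those 2 mice with 1 residual degree of freedom, so its small p-values do not measure spread between mice. Ikzf2 was at 581 CPM in KO1 and 569 CPM in WT1 against 77.1 and 85.8 CPM in their Foxp3-zero cells (log2 difference 2.66 ± 0.22, adjusted p = 1.13e-29), and Il2ra was at 249 CPM in KO1 and 174 CPM in WT1 against 23.2 and 25.0 CPM (2.89 ± 0.27). Itgae differed by 3.57 ± 0.41, Sdc4 by 3.20 ± 0.57 and Swap70 by 2.85 ± 0.49 on the same scale. The smaller kidney samples, which entered only tests with sums of 5 cells, lay on the same side outside WT2: Ikzf2 was at 534 CPM in the 7 cells of KO2 and 432 CPM in the 9 cells of WT3. Counted by cell, 64.7% of kidney Foxp3+ cells held an Ikzf2 UMI against 11.0% of Foxp3-zero cells, and 49.0% against 7.22% after thinning to 2000 UMIs. In the spleen the shares were 78.4% and 14.9%, or 70.4% and 10.3% thinned.

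**Figure D2:**
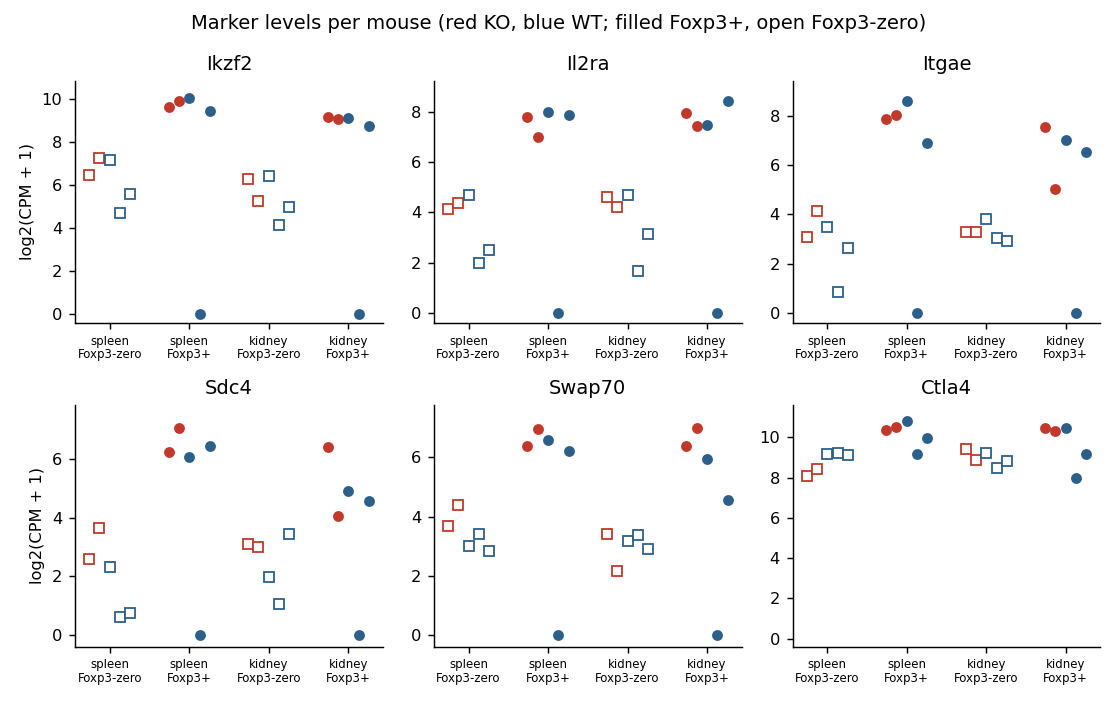
Level of 6 marker genes as log2(CPM + 1) (vertical axis) in the summed Foxp3+ cells (filled circles) and Foxp3-zero cells (open squares) of each of the 5 mice in each organ, KO in red and WT in blue. In the spleen the 4 mice with at least 44 Foxp3+ cells separate fully between classes, with Ikzf2 at 698 to 1062 CPM in Foxp3+ and 47.9 to 154 CPM in Foxp3-zero cells, while the Foxp3+ cells of WT2 sit at 0 for all markers except Ctla4.

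Since Foxp3 is a forkhead factor, a forkhead motif was looked for before the starts of the genes higher in Foxp3+ cells of both organs. Among those with a promoter to search, only Swap70 and Sdcbp2 held it. Swap70 is therefore shown as an example with the motif, and the other markers are not. The 250 bases before its RefSeq start, on the forward strand at chr7:110221453-110221702 in GRCm38.p6, hold the forkhead core TGTTTAC once, 107 bases before the start. It stands in capitals in the sequence.
Swap70: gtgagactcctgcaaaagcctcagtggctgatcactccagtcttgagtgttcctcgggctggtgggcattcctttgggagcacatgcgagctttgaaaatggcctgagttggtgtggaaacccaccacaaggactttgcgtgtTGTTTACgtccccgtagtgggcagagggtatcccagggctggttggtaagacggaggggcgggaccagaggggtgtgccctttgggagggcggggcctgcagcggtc
The motif TGTTTAC was searched on both strands. Of 83 genes higher in Foxp3+ cells of both organs, 59 had a promoter in the RefSeq table used, and 2 of these (3.39%), Swap70 and Sdcbp2, held the motif. Of all 27025 promoters of the same length 956 (3.54%) held it, so the share among the higher genes was near that of all genes. A match of letters is not a binding site.

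Cells with more Foxp3 UMIs had higher median spleen levels of several markers. The medians cover 5 mice for cells with 0 UMIs, 4 with 1, 3 with 2 and 4 with at least 3, since groups of few cells were left out, and WT2 enters only at 0. In the spleen the median over mice of Ikzf2 was 87.5 CPM in cells with 0 Foxp3 UMIs, 653 with 1, 1018 with 2 and 1107 with at least 3. For Il2ra the medians were 16.5, 101, 216 and 328 CPM. Cells with 1 UMI were thus already well above Foxp3-zero cells in both genes, and their lowest Ikzf2 value of any mouse, 382 CPM, was above the highest Foxp3-zero value, 154 CPM. Swap70 followed with 9.65, 58.0, 80.4 and 123 CPM. Itgae (7.35, 167, 309 and 299 CPM) and Sdc4 (3.96, 45.8, 107 and 95.8 CPM) did not go up further from 2 to at least 3 UMIs. In the kidney WT1 did not follow this order, with Ikzf2 at 443, 816 and 497 CPM in cells with 1, 2 and at least 3 UMIs. These are descriptions, since cells with more UMIs in all also hold more Foxp3 UMIs. The Foxp3-containing cells left out for Il1r2 and the 3 genes beside it had like marker levels, with 1037 CPM of Ikzf2, 188 of Il2ra and 305 of Itgae.

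Across all genes, 475 of 10694 tested in the spleen (4.44%) differed between Foxp3+ and Foxp3-zero cells, 292 higher (2.73%) and 183 lower (1.71%). Of 19 genes listed for regulatory T cell identity, 18 were tested and 17 were higher, with a median log2 difference of 1.92 against -0.03 over all genes. The list and its markers were chosen with knowledge of these data. Leaving out KO1, KO2 or WT1 cut the 475 genes to between 170 and 233, and without the mouse block 157 were called.

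Among co-stimulatory receptors of the TNF receptor family, Tnfrsf4 (OX40) was at 295 CPM in KO1, 367 in KO2, 605 in WT1 and 295 in WT3 against 40.6 to 114 CPM in Foxp3-zero cells, a log2 difference of 2.15 ± 0.19. Tnfrsf18 (GITR), Tnfrsf9 (4-1BB) and Tnfrsf1b (TNF receptor 2) were higher by 1.48 ± 0.14, 1.80 ± 0.18 and 1.97 ± 0.18. They were the 4 higher genes among 13 of the NF-kB and TNF receptor list, in which none was lower. Lrrc32 (GARP, which holds latent TGF-beta at the cell surface; 7:98489305-98501831) was at 11.7 CPM in KO1, 23.8 in KO2, 29.2 in WT1 and 11.4 in WT3 against 0.676 to 1.91 CPM, a difference of 3.53 ± 0.48. Ikzf4 (Eos, a co-factor of Foxp3) differed by 2.71 ± 0.23, Capg, an actin-capping protein, by 1.96 ± 0.17, Izumo1r (folate receptor 4) by 1.57 ± 0.39 and Nrp1 (neuropilin-1) by 1.54 ± 0.31.

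The interleukin 2 axis was higher in part. Il2rb, the beta chain of the receptor, was at 398 CPM in KO1, 415 in KO2, 449 in WT1 and 414 in WT3 against 148 to 275 CPM (log2 difference 0.96 ± 0.16), and the STAT5-induced inhibitors Socs2 and Cish were higher by 1.87 ± 0.23 and 1.56 ± 0.18. With Il2ra these were 4 of 13 tested genes of the list, and none was lower.

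Of 18 genes for effector function and suppression, 6 were higher and none lower in spleen Foxp3+ cells. Ctla4 (1:60909025-60915832), the inhibitory receptor that takes CD80 and CD86 from antigen-presenting cells, was at 1338 CPM in KO1, 1440.4 in KO2, 1809 in WT1 and 1005 in WT3. Its Foxp3-zero levels were 269 and 339 CPM (KO) and 580.4 and 561 CPM (WT), and the difference was 1.57 ± 0.21 (adjusted p = 0.00141). Icos, Ebi3 (a subunit of interleukin 35), Fgl2 and Itgb8 (an integrin chain that activates latent TGF-beta) were higher by 1.08 ± 0.14, 2.91 ± 0.39, 2.32 ± 0.37 and 1.69 ± 0.29. Il10 varied more between mice, at 164 CPM in KO1, 42.6 in KO2, 107 in WT1 and 11.4 in WT3, against 10.1 and 6.27 CPM (KO) and 69.9 and 46.9 CPM (WT) in Foxp3-zero cells, and did not pass (adjusted p = 0.17). The ectoenzyme genes Entpd1 (CD39) and Nt5e (CD73) and Tgfb1 differed by 0.16, 0.58 and 0.31 and did not pass either.

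Of 13 tested genes of tissue regulatory T cells, 6 were higher. Areg (amphiregulin, a growth factor of the EGF receptor; 5:91139599-91148432) was at 292 CPM in KO1, 215 in KO2, 500.1 in WT1 and 56.8 in WT3 against 13.4 to 49.6 CPM, a log2 difference of 3.04 ± 0.33 (adjusted p = 4.58e-04). The chemokine receptor Ccr8 was at 35.1 CPM in KO1, 56.4 in KO2, 51.2 in WT1 and 39.7 in WT3 against 1.35 to 7.90 CPM (3.20 ± 0.34). Both thus separated the classes in spleens, outside non-lymphoid tissue. Rora, Nfil3, Gata3 and Tnfrsf8 (CD30) were higher by 1.76 ± 0.20, 1.39 ± 0.24, 0.69 ± 0.15 and 2.74 ± 0.55. Il1rl1, the interleukin 33 receptor, was at 18.7 and 0 CPM (KO) and 7.31 and 0 CPM (WT) and did not pass (adjusted p = 0.14).

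Of 17 tested chemokine receptors and integrins, 6 were higher and 2 lower. Ccr6, the receptor for CCL20, was at 42.1 CPM in KO1, 68.9 in KO2, 20.5 in WT1 and 28.4 in WT3 against 0.824 to 11.4 CPM, a difference of 2.96 ± 0.37, and Cxcr4, Cxcr3 and Itgb7 were higher by 0.99 ± 0.22, 0.93 ± 0.21 and 0.92 ± 0.18, beside Itgae and Ccr8. Cxcr6 and the follicle-homing receptor Cxcr5 were lower, by -1.88 ± 0.42 and -0.90 ± 0.20.

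Several transcripts of helper and killer function were lower in spleen Foxp3+ cells. Il21, the cytokine of follicular helper cells, was at 0 CPM in KO1, 1.25 in KO2, 11.7 in WT1 and 0 in WT3 against 19.8 and 25.3 CPM (KO) and 81.0 and 31.4 CPM (WT) in Foxp3-zero cells (log2 difference -3.49 ± 0.40). Ifng was at 51.5 CPM in KO1, 45.1 in KO2, 98.0 in WT1 and 73.8 in WT3 against 102 and 141 CPM (KO) and 361 and 855 CPM (WT) (-2.12 ± 0.29), and Cd40lg differed by -2.02 ± 0.33, making 3 lower and 1 higher (Ltb, 0.56 ± 0.13) of 9 tested effector cytokines. Of 14 cytotoxic and chemokine genes, 5 were lower and none higher: Fasl by -1.67, Ccl4 by -1.60, Prf1 (perforin) by -1.56, Nkg7 by -1.37 and Eomes by -1.34. Of 10 genes that FOXP3 is reported to lower in mouse T cells, Pde3b, Ifng and Cd40lg were lower, with Pde3b at 11.7 and 20.0 CPM (KO) and 8.77 and 51.1 CPM (WT) against 67.4 and 119 CPM (KO) and 39.6 and 54.2 CPM (WT). Of 13 genes of resting and circulating T cells, Tcf7 (-1.25 ± 0.21), Dapl1 and Igfbp4 were lower and none was higher. None of 16 cell cycle genes passed, in either direction. Mki67 or Top2a was found in 9.91% to 15.8% of the Foxp3+ cells of the 4 spleens and in 6.18% to 19.4% of their Foxp3-zero cells.

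The largest rises in the spleen beside the markers included genes of low level. Nxpe4 was at 14.0 CPM in KO1, 13.8 in KO2, 11.7 in WT1 and 5.68 in WT3 against at most 0.545 CPM in Foxp3-zero cells (log2 difference 5.35 ± 0.78). Rln3, which encodes the peptide hormone relaxin-3, had a higher level, at 229 CPM in KO1, 152 in KO2, 121 in WT1 and 96.5 in WT3 against 6.08 to 17.4 CPM (3.58 ± 0.22, adjusted p = 1.13e-05). The lipoxygenase gene Alox8, the leukotriene B4 receptor gene Ltb4r1 and Zc3h12c, an RNase of the Regnase family, were higher by 3.90 ± 0.72, 3.68 ± 0.56 and 3.56 ± 0.74. Flicr differed by 5.02 ± 0.74 but shares 1341 bases with Foxp3 on the X chromosome, and reads of those bases cannot be told apart from Foxp3, which the rule used.

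Several of the largest falls rested on genes with no UMI in Foxp3+ cells, for which only a bound can be given, against 3 UMIs over the group's cells. Klrd1, a subunit of NK cell receptors, was at 4.82 to 41.6 CPM in Foxp3-zero cells and at least 11.2-fold lower in Foxp3+ cells, and Coch was at least 10.1-fold lower. S100a9, a neutrophil protein gene, was at least 79.8-fold lower, but its Foxp3-zero level came from WT1 (303 CPM) and WT3 (156 CPM) and was 0.254 and 0.272 CPM in the KO mice. Nrgn, Tyrobp, Edn3, Cd79a, Cd24a and Serpina9 each had 1 UMI in the Foxp3+ cells of WT1 and none in the other 3 mice. Markers of other cells in the Foxp3-zero group thus move with these falls, and their part was not tested.

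B cell transcripts went different ways. A UMI of Cd79a, Cd79b, Ms4a1, Igkc, Lyz2, Kap or Miox was found in many spleen Foxp3+ cells. The shares were 41.1% in KO1, 50.0% in KO2, 29.4% in WT1 and 45.5% in WT3. In Foxp3-zero cells they were 8.69%, 14.2%, 16.6% and 43.9%. The part of such transcripts in the differences below was not tested. Ighm, the immunoglobulin mu heavy chain gene, was higher in spleen Foxp3+ cells, at 297 CPM in KO1, 349 in KO2, 484 in WT1 and 284 in WT3 against 62.4 and 93.7 CPM (KO) and 39.6 and 9.06 CPM (WT) in Foxp3-zero cells (log2 difference 2.87 ± 0.40, adjusted p = 0.00182). It was found in 58.3% of spleen Foxp3+ cells and 9.00% of Foxp3-zero cells, or 43.3% and 5.85% after thinning to 2000 UMIs. Cd74, the invariant chain, was higher as well (1.46 ± 0.29). Cd79a was lower and had 1 UMI in all 551 spleen Foxp3+ cells. Cd79b was at 23.4 and 7.52 CPM (KO) and 8.77 and 17.0 CPM (WT) in Foxp3+ and 2.79 and 10.6 CPM (KO) and 4.95 and 0.541 CPM (WT) in Foxp3-zero cells and did not pass (adjusted p = 0.42). Ms4a1 was found in the Foxp3+ cells of KO2 alone among these mice, at 22.5 CPM against 6.81 CPM, and did not pass either (adjusted p = 0.50). In the kidney Ighm was again higher (3.24 ± 0.36), at 185 CPM in KO1 and 142 CPM in WT1 against 22.6 and 11.3 CPM. Igkc, the kappa light chain gene, was higher in the kidney (1.30 ± 0.25), and in the spleen it was at 437 CPM in KO1, 413 in KO2, 257 in WT1 and 352 in WT3 against 37.5 and 71.1 CPM (KO) and 447 and 302 CPM (WT), above in KO1, KO2 and WT3 and below in WT1 (adjusted p = 0.31). In all, 2 of 8 B cell transcripts tested in the spleen were higher and 3 lower (Cd79a, H2-Ab1 and H2-Aa), with a median log2 difference of 1.23 against -0.03 over all genes.

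**Figure D3:**
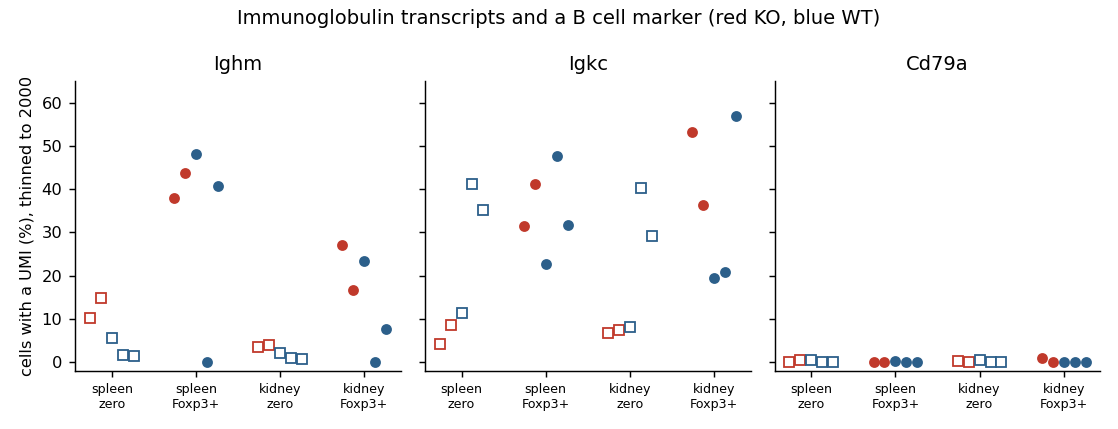
Share of cells with at least 1 UMI of Ighm, Igkc and the B cell marker Cd79a (vertical axis, percent, each cell thinned to 2000 UMIs) in Foxp3-zero cells (open squares) and Foxp3+ cells (filled circles) of each mouse and organ, KO in red and WT in blue. Over all spleen cells Ighm reaches 43.3% in Foxp3+ against 5.85% in Foxp3-zero cells, while Cd79a, which unlike Cd79b and Ms4a1 was called lower in spleen Foxp3+ cells, stays below 1% in both.

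In the kidney 250 of 8075 genes tested (3.1%) differed between Foxp3+ and Foxp3-zero cells, 149 higher (1.85%) and 101 lower (1.25%). This test rests on 2 mice, KO1 and WT1, with 1 residual degree of freedom, so its spread comes mostly from other genes. DESeq2 called 45 genes, cells of 2500 to 5000 UMIs gave 31 and the fit without the mouse block 22. Of 18 tested identity genes 14 were higher and 1, Cd83, was lower, and their median log2 difference was 1.72 against -0.03 over all genes.

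Lrrc32 led the kidney rises, at 18.5 CPM in KO1 and 69.7 CPM in WT1 against 0.539 and 2.22 CPM (4.83 ± 0.62). Nxpe4 (4.73 ± 0.76) and Rln3 (4.39 ± 0.53) were among the largest rises here too, with Rin2 (4.10 ± 0.54), an exchange factor for Rab5, and Gpr83 (3.64 ± 0.71), a receptor gene known from regulatory T cells. Neb, which encodes the muscle protein nebulin, was at 102 CPM in KO1 and 166 CPM in WT1 against 6.47 and 15.9 CPM (3.41 ± 0.42). Slc16a3, a lactate exporter gene, was at 73.8 CPM in KO1 and 66.8 CPM in WT1 against 2.70 and 7.76 CPM (3.43 ± 0.53), and the chemokine receptor Ccr4 differed by 3.34 ± 0.66.

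Genes of resting T cells were lower in kidney Foxp3+ cells: 6 of 13 tested, with Igfbp4 (-4.61 ± 0.60), Tcf7 (-1.74 ± 0.26), Lef1 (-1.16 ± 0.29), Ccr7 (-0.77 ± 0.21), Bcl2 and Klf2. Cd40lg, Ifng and Tnfsf11 were the 3 lower genes of 8 effector cytokines, with Cd40lg at 36.9 CPM in KO1 and 52.3 CPM in WT1 against 168 and 222 CPM (-2.23 ± 0.33). Xcl1 and Fasl were lower among 13 cytotoxic and chemokine genes, and Sostdc1, a gene of follicular helper cells, was at 0 in both mice, at least 2.87-fold lower. Of 12 tissue regulatory T cell genes only Areg passed, at 203 CPM in KO1 and 282 CPM in WT1 against 23.2 and 119 CPM (1.67 ± 0.26). Of 8 type I interferon genes Ifit1, Ifi27l2a and Isg15 were higher. The myeloid genes Fcer1g and Cst3 were also called, both of the 2 tested, and 1 kidney cell of KO1 alone held 138 UMIs of myeloid genes. Without that cell and a spleen cell of KO1 with 875 UMIs of kidney tubule genes, a choice made after seeing the data, 162 genes were called in the kidney.

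Higher genes shared by both organs numbered 83, which is 28.4% of the 292 in spleen and 55.7% of the 149 in kidney, and 41 lower genes were shared (22.4% and 40.6%). The KO1 and WT1 mice enter both tests. Only 28 of 9455 genes (0.296%) had a class difference that itself differed between organs, 9 more positive in the kidney (0.0952%) and 19 more negative (0.201%). DESeq2 called 7, all among these 28, and without the 2 KO1 cells rich in tubule or myeloid UMIs 19 of the 28 were still called and 7 were not tested. With DESeq2 Tnfrsf1b still passed, and Ccr8 and Cd83 did not. Tnfrsf1b was among the genes with a more negative class difference in the kidney. In the kidney it was at 157 CPM in KO1 and 244 CPM in WT1 against 192 and 204 CPM in Foxp3-zero cells (organ difference -2.41 ± 0.34, adjusted p = 1.41e-04). In the spleen of the same mice it was at 182 and 338 CPM in Foxp3+ and 34.5 and 63.2 CPM in Foxp3-zero cells, so the Foxp3-zero level stood higher in the kidney in both mice. It did so too for Rora (Foxp3-zero 76.3 and 54.6 CPM in spleen, 278 and 208 CPM in kidney; organ difference -2.02 ± 0.32), Ccr8 (-2.63 ± 0.55), Tnfrsf4 (-1.55 ± 0.31), Cish (-1.98 ± 0.35) and Areg. For Areg and Cish the Foxp3+ level was also lower in the kidney than in the spleen of both mice, with Areg at 292 and 500.1 CPM in spleen and 203 and 282 CPM in kidney. Cd83 differed in the Foxp3+ cells themselves, from 196 and 98.0 CPM in spleen to 18.5 and 8.71 CPM in kidney (-3.20 ± 0.67).

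Foxp3+ cells of the kidney were then set against Foxp3+ cells of the spleen in the same 2 mice. Of 5717 genes tested, 193 (3.38%) were called, 139 higher in the kidney (2.43%) and 54 lower (0.945%). This test too has 1 residual degree of freedom, so its spread comes mostly from other genes and its small p-values do not measure spread between mice. Vps37b (5:124004641-124032260), a subunit of the ESCRT-I sorting complex, was at 1467 CPM in KO1 and 1072 CPM in WT1 in kidney and 241 and 222 CPM in spleen (log2 difference 2.51 ± 0.22, adjusted p = 6.32e-26). Cxcr6 (9:123806477-123811754), the receptor for CXCL16, was at 27.7 CPM in KO1 and 90.0 CPM in WT1 in kidney and 0 and 5.85 CPM in spleen (4.22 ± 0.75). Dgat1, which makes triacylglycerol, was at 175 CPM in KO1 and 154 CPM in WT1 in kidney and 30.4 and 24.9 CPM in spleen (2.66 ± 0.38). For these genes both kidney levels lay above both spleen levels, and the Cxcr6 level of WT1 was well above that of KO1. Mpp7, Ramp3, Abcb1b, Ifitm3 and Slc16a3 were higher by 2.83 ± 0.34, 2.62 ± 0.37, 3.15 ± 0.50, 2.75 ± 0.64 and 2.77 ± 0.59. Icos (1.21 ± 0.22), Ccl5 (1.73 ± 0.19) and Nkg7 (1.37 ± 0.24) were higher as well. Of 10 tested cytotoxic and chemokine genes, Ccl5, Ccl3 and Nkg7 were higher and Cst7 was lower.

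Of 18 identity genes tested between the organs, none was higher in the kidney and 3 were lower. Itgae was at 185 CPM in KO1 and 128 CPM in WT1 in kidney and 229 and 388 CPM in spleen (-1.02 ± 0.29, adjusted p = 0.0181), Izumo1r differed by -0.97 ± 0.24 and Cd83 by -3.33 ± 0.53. Ikzf2 differed by -0.62 ± 0.21 (adjusted p = 0.083) and Ctla4 by -0.08 ± 0.18 (adjusted p = 0.93). None of 10 tested tissue regulatory T cell genes passed in either direction. Cxcl10, the chemokine induced by interferon gamma, Slamf7, Il10 and Lef1 were lower in kidney Foxp3+ cells, by -2.25 ± 0.51, -2.57 ± 0.58, -1.23 ± 0.39 and -1.35 ± 0.33. Among 11 tested genes of resting and circulating T cells, Lef1 alone was lower and S1pr1 alone was higher. Among 18 suppression genes, Il10 alone was lower and Icos alone was higher. Phactr1 and Ptprm had no UMI in the kidney cells and were at least 25.7-fold and 4.88-fold lower. The immediate early genes went both ways, with Egr1, Nr4a3 and Jund higher and Fos and Jun lower.

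Foxp3-zero cells of the same mice also had higher kidney levels of 3 of these genes, which were not tested in that class. Vps37b in Foxp3-zero cells was at 1477 CPM in KO1 and 1087 CPM in WT1 in kidney and 427 and 132 CPM in spleen, Mpp7 at 248 CPM in KO1 and 228 CPM in WT1 in kidney and 61.6 and 50.0 CPM in spleen, and Ramp3 at 267 CPM in KO1 and 238 CPM in WT1 in kidney and 28.4 and 8.74 CPM in spleen. The calls did not hold within a band of depth, which also left fewer cells and genes: kidney Foxp3+ cells of WT1 held a median of 5055 UMIs and those of its spleen 3266, and among cells of 2500 to 5000 UMIs edgeR called 0 of 2782 genes (280 at an unadjusted p under 0.05). DESeq2 called 25 of the 5717 genes, 57 were called without the mouse block and 110 without the 2 cells rich in myeloid or tubule transcripts.

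**Figure D4:**
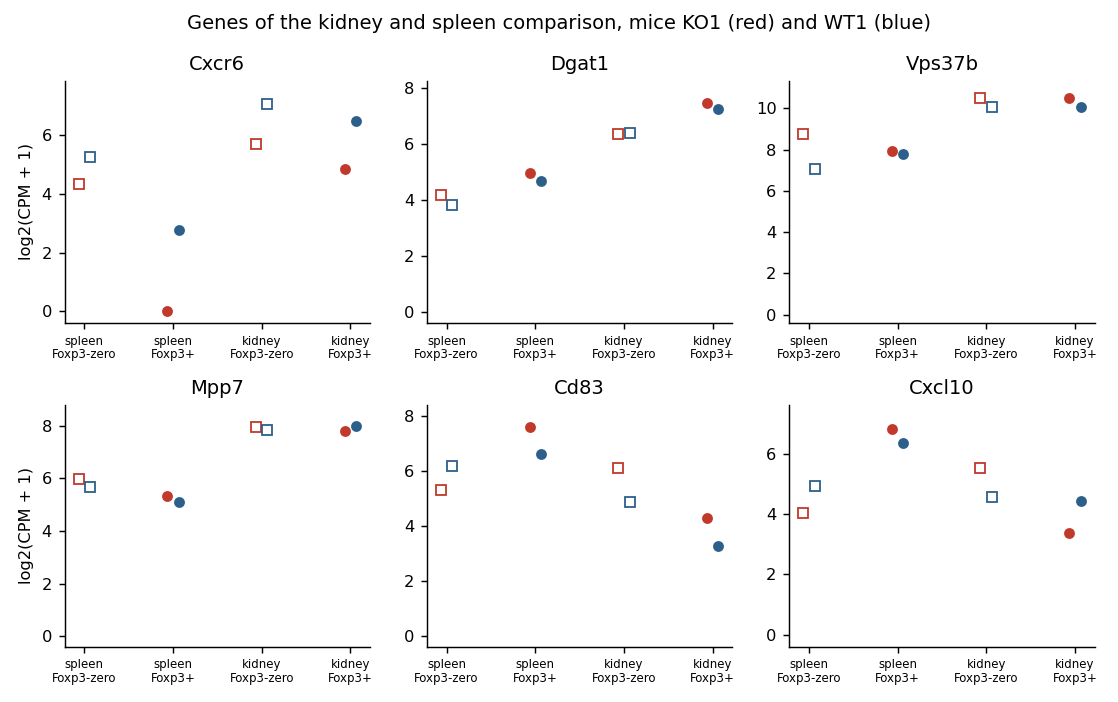
Level of 6 genes of the organ comparison as log2(CPM + 1) (vertical axis) in the Foxp3-zero cells (open squares) and Foxp3+ cells (filled circles) of the spleen and kidney of mice KO1 (red) and WT1 (blue). Vps37b and Mpp7 stand higher in the kidney in both classes, whereas Cd83 falls in kidney Foxp3+ cells to 18.5 and 8.71 CPM.

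Genotype was compared in the spleen, where 4 mice had at least 10 Foxp3+ cells. Ezh2 (6:47530274-47595270) in Foxp3+ cells was at 44.4 CPM in KO1, 67.6 in KO2, 52.6 in WT1 and 56.8 in WT3, with a log2 difference of 0.13 ± 0.32 between KO and WT (adjusted p = 1.00), and the groups overlapped. In Foxp3-zero cells it was at 43.4 and 41.7 CPM (KO) and 74.4 and 157 CPM (WT), without overlap. The class difference of the genotype effect, 1.14 ± 0.39, did not pass (adjusted p = 0.18). In the kidney Ezh2 was at 27.7 and 78.6 CPM in KO Foxp3+ cells and 81.3, 254 and 68.2 CPM in WT, from as few as 5 cells. Reads of transcript 5′ ends need not cover the deleted part of the gene, so these levels do not check the deletion. Between Foxp3+ and Foxp3-zero spleen cells Ezh2 differed by -0.36 ± 0.26 (adjusted p = 0.57), and none of 11 tested PRC2 subunit genes passed.

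No gene passed between KO and WT Foxp3+ spleen cells: edgeR called 0 of 6882 (0.0%). Its unadjusted p was under 0.05 for 309 genes, a share of those tested that is itself below 0.05. DESeq2 likewise called 0. Leaving out 1 mouse changed this, with 23 genes called without KO2, 17 without WT1, 46 without WT3 and 0 without KO1, and 79 were called without the filter on low counts. None of the 5 markers passed: Ikzf2 differed by 0.01 ± 0.20, Il2ra by -0.50 ± 0.27, Itgae by -0.17 ± 0.35, Sdc4 by 0.59 ± 0.33 and Swap70 by 0.26 ± 0.29. The smallest p-values were for Igfbp4, at 489 CPM in KO1, 142 in KO2, 8.77 in WT1 and 0 in WT3 (adjusted p = 0.13), and Rrad, at 234 CPM in KO1, 195 in KO2, 74.6 in WT1 and 56.8 in WT3 (adjusted p = 0.17), on the higher side. On the lower side they were for Tmem117, with no UMI in either KO mouse, Etv6 (-1.18 ± 0.23), Slamf7 (-1.45 ± 0.28) and Dock9 (-1.52 ± 0.30). Their groups did not overlap, and none passed.

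The genotype effect in Foxp3+ cells did differ from that in Foxp3-zero cells of the same spleens, for 196 of 10694 genes (1.83%), 100 more positive in Foxp3+ cells (0.935%) and 96 more negative (0.898%). In several of the genes named here the genotypes lay further apart in Foxp3-zero than in Foxp3+ cells. Satb1 (17:51736187-51833290), a chromatin organiser of naive T cells, was at 372 CPM in KO1, 345 in KO2, 30.0 in WT1 and 32.6 in WT3 in Foxp3-zero cells, but at 145 CPM in KO1, 120.2 in KO2, 107 in WT1 and 90.8 in WT3 in Foxp3+ cells (difference of effects -3.28 ± 0.30, adjusted p = 2.50e-06). Ccr7 was at 612 and 809.8 CPM (KO) and 132 and 58.3 CPM (WT) in Foxp3-zero and 341 and 273 CPM (KO) and 196 and 312 CPM (WT) in Foxp3+ cells (-2.68 ± 0.36), and Lef1 at 733 and 762 CPM (KO) and 155 and 104 CPM (WT) in Foxp3-zero and 243 and 238 CPM (KO) and 178 and 176 CPM (WT) in Foxp3+ cells (-2.17 ± 0.24). In all 7 of 13 resting T cell genes were more negative in Foxp3+ cells, and none more positive.

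In the other direction stood 8 of 14 cytotoxic and chemokine genes and 7 of 16 cell cycle genes. Ccl5 was at 1140.5 and 1304 CPM (KO) and 7218 and 19413 CPM (WT) in Foxp3-zero and 713 and 1965 CPM (KO) and 882 and 5729 CPM (WT) in Foxp3+ cells (2.27 ± 0.29), and Gzmk at 33.0 and 52.0 CPM (KO) and 309 and 1059 CPM (WT) in Foxp3-zero and 11.7 and 105 CPM (KO) and 65.8 and 346 CPM (WT) in Foxp3+ cells (2.23 ± 0.41). Mki67 was at 25.1 and 19.1 CPM (KO) and 104 and 85.3 CPM (WT) in Foxp3-zero and 77.2 and 65.1 CPM (KO) and 26.3 and 28.4 CPM (WT) in Foxp3+ cells (3.44 ± 0.39), so that its KO level lay below WT in Foxp3-zero cells and above it in Foxp3+ cells. Counted by cell, the order in Foxp3+ cells was the other way. Mki67 or Top2a was found in 12.5% and 9.91% of KO and 15.8% and 13.6% of WT Foxp3+ cells, so the levels do not show more cycling cells in KO. Il10 (3.16 ± 0.48), Entpd1 (1.93 ± 0.40), Prdm1 (1.77 ± 0.42) and Tigit (1.63 ± 0.35) were among 6 of 18 suppression genes with a more positive effect. None of the 18 passed between KO and WT Foxp3+ cells themselves, where their median log2 difference was -0.17. For Il10 the genotypes overlapped in Foxp3+ cells, and both KO levels lay below both WT levels in Foxp3-zero cells. Gpr83 (-4.84 ± 0.76) was 1 of 2 identity genes on the negative side, at 21.0 and 28.8 CPM (KO) and 30.7 and 34.1 CPM (WT) in Foxp3+ and 19.5 and 15.3 CPM (KO) and 1.32 and 0.135 CPM (WT) in Foxp3-zero cells. DESeq2 called 57 genes, 111 and 114 were called without KO1 and KO2, and 328 without WT1.

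**Figure D5:**
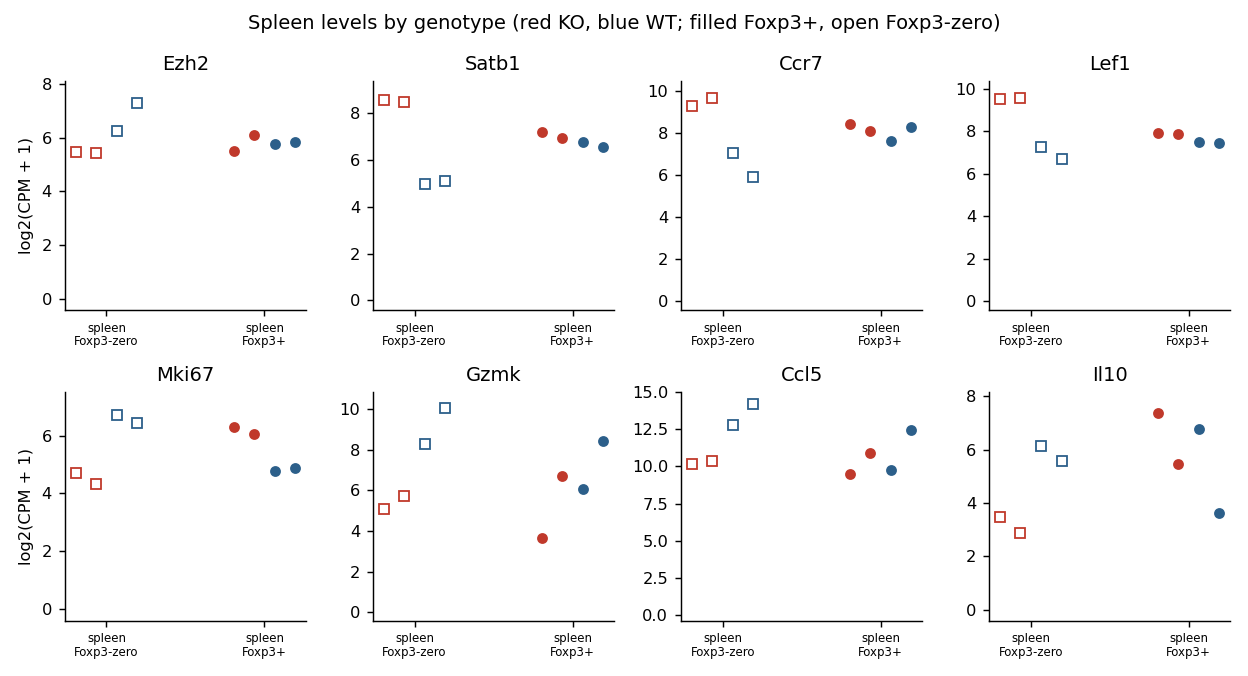
Level of 8 genes as log2(CPM + 1) (vertical axis) in the spleen Foxp3-zero cells (open squares) and Foxp3+ cells (filled circles) of KO1 and KO2 (red) and WT1 and WT3 (blue). Satb1, Ccr7 and Lef1 separate the genotypes in Foxp3-zero cells, where Satb1 is at 372 and 345 CPM in KO and 30.0 and 32.6 CPM in WT, and lie closer together in Foxp3+ cells.

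In the kidney only KO1 and WT1 reached 10 Foxp3+ cells, so genotype could be tested only with sums of at least 5 cells, where 1 of 1212 genes (0.0825%) passed. That gene was Ccl5, at 987 and 126 CPM in KO and 5370.0, 13508 and 11098 CPM in WT (log2 difference -4.00 ± 0.59, adjusted p = 0.0109). The groups did not overlap. Foxp3-zero kidney cells were at 1374 and 3312 CPM in KO and 5678, 16311 and 7903 CPM in WT, and the Foxp3+ cells of WT2 lack the regulatory markers.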

How the data were processed

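The authors deposited 1 matrix of whole UMI counts per organ, with 32285 gene rows and 10 antibody tag rows, made with Cell Ranger 7.1.0 per the file headers; Seurat 5.0.1 is named in the submitters' processing notes. Further settings are not given in the sources used. Barcodes were given to mice by block and leading tag. Tag numbers were joined to the key of tag sequences by the key's order. Cells with at least 200 genes and under 10% mitochondrial UMIs were kept. Doublets were judged from the tags only, without a caller. No cell was clustered.

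UMIs were summed per mouse, organ and class (sums of at least 10 cells, from 108372 to 798401 UMIs for the Foxp3+ cells tested) and compared by edgeR 4.0.16 under R 4.3.3 (TMM, filterByExpr, quasi-likelihood, Benjamini-Hochberg at 0.05), leaving out the 7 genes of the rule. DESeq2 1.42.0 was an alternative. The test was tried on simulated sums drawn from a single pooled profile, with the same dispersion for every gene and no mouse effects. This trial cannot check the spread between mice. The SE of a log2 difference is its size divided by the root of the F statistic. Levels are plain CPM and carry no test of their own. Thinned shares are exact expectations over random draws of 2000 UMIs from each cell, and cells with fewer were left out (251 KO and 571 WT spleen cells, 74 and 410 kidney cells). Intervals and bounds cover counting error only. Shares were compared over mice by exact permutation. RefSeq positions were matched by symbol for 95 of 98 named genes looked up outside the lists.

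Genes were named by rule: the markers, the 10 largest called rises and falls that went the same way in every mouse (with fewer than 5 calls, the 5 smallest p-values in each direction), leaving out receptor and immunoglobulin segments, ribosomal, mitochondrial and unnamed genes, then members of 22 gene lists, and Ezh2. The members and lists were chosen with earlier results of these data known. Results for a few genes are not reported here. Labels do not say that the mice were of 1 litter or batch.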

Additional observations from a re-analysis of the deposited data

Results flagged for a closer look

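The Ikzf2 level in kidney Foxp3+ cells of WT2, 0 CPM from 5 cells, lay far from those of the other 4 mice, which were between 432 and 581 CPM. It was 1 of 12 sets of 5 mice examined in this way, and chance flags about 1 in 20.

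The class difference between Foxp3+ and Foxp3-zero cells itself differed between kidney and spleen, by the interaction term of edgeR, for the genes named here with their log2 values, kidney minus spleen. Genes on the positive side were Anxa1 (5.38) and Egr1 (1.87), beside the myeloid genes Lyz2 (14.02) and Alox5ap (11.81). A single kidney cell of KO1 held 138 UMIs of myeloid genes, and Lyz2 was at 0 in the kidney Foxp3+ cells of the other 4 mice. On the negative side were Cd83 (-3.20), Cxcl10 (-2.84), Ccr8 (-2.63) and Tnfrsf1b (-2.41). The values of the tubule genes Gatm (-18.29), Fbp1 (-16.21), Miox (-15.08), Fxyd2 (-14.48) and Gpx3 (-12.41) moved with 1 spleen cell of KO1 that held 875 tubule UMIs; without it and the myeloid-rich cell Gpx3 no longer passed. Where a group is at 0, the fitted value depends on the prior count and is no bound.

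The genotype effect differed between Foxp3+ and Foxp3-zero spleen cells, by the same kind of term, for the genes named here with their log2 values, Foxp3+ minus Foxp3-zero. More positive were Plk1 (9.74), Ckap2l (9.23), Gpx3 (8.76), Tpx2 (6.27), Lmo7 (5.42), Ccna2 (5.26), Hist1h2ap (5.12), Nusap1 (4.81), Cenpf (4.81) and Osr2 (4.76). Of these, Plk1, Ckap2l, Tpx2, Ccna2, Nusap1 and Cenpf act in cell division, and Gpx3 no longer passed without the 2 cells. Ccna2 and Gpx3 had no UMI in the spleen Foxp3+ cells of WT3. Where a sum is at 0, the fitted value depends on the prior count, so the largest values here are not read as folds. More negative were Gpr83 (-4.84), Pard6g (-3.85), Gpr146 (-3.73), Satb1 (-3.28), Ifngr2 (-3.07), Sh3pxd2a (-3.03), Fam210b (-2.92), Ccr7 (-2.68), P2rx7 (-2.54) and Rras2 (-2.51).

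Cells of the second day, which entered no comparison, also held Foxp3. Of the 2399 cells that its largest blocks repeat, 209 (8.71%) had a Foxp3 UMI and 139 (5.79%) met the whole rule. These cells are repeated in both organs' matrices, and no mouse, organ or genotype is given to them here.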

How the results depend on the processing

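All 30 recomputed share differences kept their direction; without 1 mouse they ranged from 5.09 to 10.0 points between KO and WT spleens, 1.05 to 2.63 in kidneys and -5.09 to -2.61 between organs. The spleen class comparison gave 1016 genes with no filter on low counts, 157 without the mouse block and 170 to 569 without 1 mouse. The kidney class comparison gave 45 with DESeq2, 152 with no filter, 31 in cells of 2500 to 5000 UMIs, 153 with sums of at least 5 cells, 22 without the block and 162 without the 2 cells of many tubule or myeloid UMIs. The organ difference of that comparison gave 7 with DESeq2 and 53 with no filter. Kidney against spleen gave 25 with DESeq2, 0 in cells of 2500 to 5000 UMIs (280 at an unadjusted p under 0.05 by edgeR), 57 without the block and 110 without the 2 cells. KO against WT in the spleen gave 79 with no filter, 0 to 46 without 1 mouse, 5 for cells with 2 Foxp3 UMIs, and 1 each in cells of 2500 to 5000 UMIs, with sums of 5 cells, without cycling cells and without cells of other-cell transcripts. The class difference of the genotype effect gave 57 with DESeq2, 295 with no filter and 111 to 328 without 1 mouse. These causes were not tested. With fewer genes or cells tested, fewer calls can be made by construction.

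Some called genes changed sign: 8 of 219 in the kidney class comparison, 7 of 186 in the class difference of the genotype effect and 3 of 20 in the organ difference among cells of 2500 to 5000 UMIs, 3 of 196 in the genotype effect without WT1, and at most 2 in any other alternative. Among the markers, largest changes and Ezh2, the called gene that did so was Anxa1 in the organ difference (-0.76 in cells of 2500 to 5000 UMIs, where Sdc4 gave 1.22). In kidney against spleen Il2ra gave 0.064 in those cells and 0.054 with sums of 5 cells, and Sdc4 gave 0.11 without cycling cells. In KO against WT, Ikzf2 gave -0.0028 with DESeq2, -0.17 in cells of 2500 to 5000 UMIs, -0.19 without cycling cells, -0.16 without other-cell transcripts, -0.11 without KO2 and -0.23 without WT3. Without 1 mouse these values ranged from -0.23 to 0.34 for Ikzf2, -0.63 to 1.03 for Itgae, -0.074 to 0.51 for Swap70 and -0.23 to 0.33 for Ezh2. Itgae gave 1.03 without WT1 and 0.018 with sums of 5 cells, Sdc4 -0.0038 without other-cell transcripts, Swap70 -0.074 and Ezh2 -0.23 without KO2, and Ezh2 -0.23 without cycling cells. Of 1266 recomputed values of named genes, 1032 kept direction and call. Leaving out 1 of the 2 kidney mice left no residual degrees of freedom, and the kidney sums without other-cell transcripts held too few cells; these were not run. The kidney genotype comparison was run only with sums of 5 cells. The 2-cell alternative and the count of every Foxp3 cell were chosen after seeing the data.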

Other observations

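Egr1 went different ways in the organs. Egr1, an immediate early gene of receptor signalling, was at 109.9 CPM in KO1, 72.6 in KO2, 142 in WT1 and 119 in WT3 in spleen Foxp3+ cells and 300.5 and 155 CPM (KO) and 226 and 217 CPM (WT) in Foxp3-zero cells, and it and Jun were the 2 lower genes of 14 in that list. In the kidney Egr1 was at 443 CPM in KO1 and 203 CPM in WT1 in Foxp3+ and 148 and 162 CPM in Foxp3-zero cells, where it was called higher and Nr4a2 lower among 13 genes tested. The list's median log2 difference was -0.38 in the spleen and -0.31 in the kidney, against -0.03 over all genes in both. Areg reached 1819 CPM in the 9 kidney Foxp3+ cells of WT3, against 203, 173 and 282 CPM in KO1, KO2 and WT1.

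Cells with a UMI of the B cell genes Cd79a or Ms4a1 held a Foxp3 UMI in the spleen in 34.5% of cases (19 of 55 cells, median 4173 UMIs), against 12.5% of all cells (median 3396 UMIs), and after thinning to 2000 UMIs 27.3% against 9.74%. No test was made of this difference.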
